A study of Homo sapiens with 15 samples.

Results

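A set of 35 genes of glucose uptake, glycolysis, lactate handling, glucose sensing and the hypoxia response was followed across all 5 groups of the experiment. The members were picked by symbol from a table of 20375 genes, with earlier results of these data known. Of these 35, 32 passed the filter on low counts and were tested. CA9, EGLN3 and ANKRD37 did not pass and are given as levels only.

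Molm-13 is an established human acute myeloid leukemia line of monocytic type with an internal tandem duplication in the receptor kinase gene FLT3. It was sequenced as poly(A) RNA in 15 libraries, 3 per group. Control cells grew for 4 days without drug. The cytarabine groups received 0.5 µM or 1 µM of this nucleoside analogue, which blocks DNA synthesis, for 4 days. The FL-Fc-DM1 groups received cytarabine at 0.5 µM or 1 µM for 3 days and then 1 nM FL-Fc-DM1 for 24 hours with cytarabine removed. FL-Fc-DM1 is not explained in the labels; DM1 is a maytansinoid, a class of compounds that block microtubules. Comparing FL-Fc-DM1 with cytarabine libraries therefore compares the added drug and the removal of cytarabine at once. All groups were cultured for 4 days and no library was taken at 3 days. The FL-Fc-DM1 groups thus stand beside the cytarabine groups and are not later states of them. Where levels are listed below, the word then marks the next group named, not a later time. The doses given beside FL-Fc-DM1 are those of cytarabine before it. All groups are 1 line in culture. The labels do not state that replicates were separate cultures, so p-values cover the spread between libraries alone, and that spread may be technical. The treatment text of the labels names THP-1 for the FL-Fc-DM1 groups, while titles, cell line entries and the design name Molm-13; the identity of those libraries was not tested here.

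Cells take up glucose through facilitative transporters, hexokinases trap it as glucose 6-phosphate, and phosphofructokinase commits it to glycolysis, which ends in pyruvate. Lactate dehydrogenases turn pyruvate into lactate, which leaves by monocarboxylate transporters, while pyruvate dehydrogenase, held back by its kinases, feeds it into mitochondria. Glucose 6-phosphate is sensed by the transcription factors MondoA and ChREBP, which bind carbohydrate response elements made of a pair of E-boxes and switch on TXNIP and ARRDC4, arrestin-family proteins that limit glucose uptake. Hypoxia-inducible factors bind shorter elements with a core of ACGTG or GCGTG and are known to raise many genes of glycolysis together with VEGFA, CA9 and EGLN3.

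Levels are CPM, counts per 1000000 of a library size scaled by edgeR's TMM factors. Changes are log2 fold changes ± SE from edgeR's quasi-likelihood test, and a gene is said to have risen or fallen where its Benjamini-Hochberg adjusted p over the 12355 tested genes was under 0.05. Total counts ran from 10.9 to 16.97 M (mega) per library. Libraries of the 1 µM groups scattered more than the others: pairs of libraries of a group differed by a chi-square of 1.755 to 4.974 per degree of freedom over genes, with the values above 3 all in these groups. The fit shares 1 estimate of spread over all groups. SE and p-values may thus be too small for comparisons of the 1 µM groups and too large for those of the others. In bulk RNA, fewer cells of a kind and less RNA per cell cannot be told apart. The 8 myeloid markers checked (FLT3, CD33, SPI1, MPO, CSF1R, ITGAM, CD14 and LYZ) were all detected in every group, and their summed level moved with the treatment. The sum was 979 to 1010 CPM in control. It was 9400 to 9900 CPM at cytarabine 0.5 µM, 7520 to 7740 CPM at 1 µM, and 16000 to 16700 CPM and 14200 to 14700 CPM after FL-Fc-DM1. LYZ, the lysozyme gene, made most of that sum in the treated groups, with means of 379 CPM in control and 6600 to 15400 CPM elsewhere. The 8 did not move as one: MPO went from 20.6 CPM in control to 3.87 to 6.03 CPM elsewhere. ITGAM went from 7.72 to 183 and 138 CPM under cytarabine and was at 95.9 and 62.3 CPM after FL-Fc-DM1. FLT3 went from 395 to 587 and 541 CPM and then to 386 and 323 CPM. Summed B cell markers reached at most 1.19 CPM and erythroid markers at most 0.191 CPM. Summed T and NK cell markers went from 37.3 to 40 CPM in control to between 10.7 and 19.5 CPM elsewhere. NCAM1 (26.9 CPM in control, 10.4 to 12.9 elsewhere) and CD3D (11.6 CPM in control, 1.35 to 4.17 elsewhere) made most of that sum, with CD3E, CD3G and CD2 at means of at most 0.211 CPM. The 5 markers of stroma and epithelium summed to 98.5 to 104 CPM in control and 247 to 321 CPM elsewhere. Nearly all of this was PECAM1, which leukocytes also carry, with means of 100 CPM in control and 254 to 315 CPM elsewhere, and COL1A2 and EPCAM were at 0 in every group. The part of these marker changes in the results below was not tested.

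Across the members, cytarabine gave changes in both directions, and the FL-Fc-DM1 groups differed from the cytarabine groups again in both. At cytarabine 0.5 µM, 16 members rose and 10 fell against control, when 73.2% of all tested genes were called in either direction, 38% higher and 35.2% lower. At 1 µM, 14 rose and 11 fell, beside 75.9% of all genes, 39.3% higher and 36.6% lower. A call was thus common among all genes, and the members called, 26 and 25 of 32, are close to that background. FL-Fc-DM1 after 0.5 µM, set against cytarabine 0.5 µM, gave 13 rises and 8 falls, when 44.7% of all genes were called, 22% higher and 22.8% lower. After 1 µM it gave 12 rises and 9 falls, beside 45.7%, 23.5% higher and 22.2% lower. The 21 members called in each are a larger share than among all genes, a difference that was not tested. The members' median log2 change was 0.21 and 0.17 for the cytarabine doses and 0.14 and 0.13 for FL-Fc-DM1, beside medians of 0.03, 0.03, -0.02 and 0.00 over all tested genes. Called changes of at least 2-fold were made by 7 and 8 members under cytarabine (21.4% and 23.9% of all genes). They were made by 2 members in each FL-Fc-DM1 comparison (3.17% and 4.17% of all genes). The latter were TXNIP and ARRDC4 at both doses. The comparisons share libraries. Both cytarabine comparisons use the control, and each cytarabine group stands in a comparison on either side, with control and with FL-Fc-DM1.

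**Figure D1:**
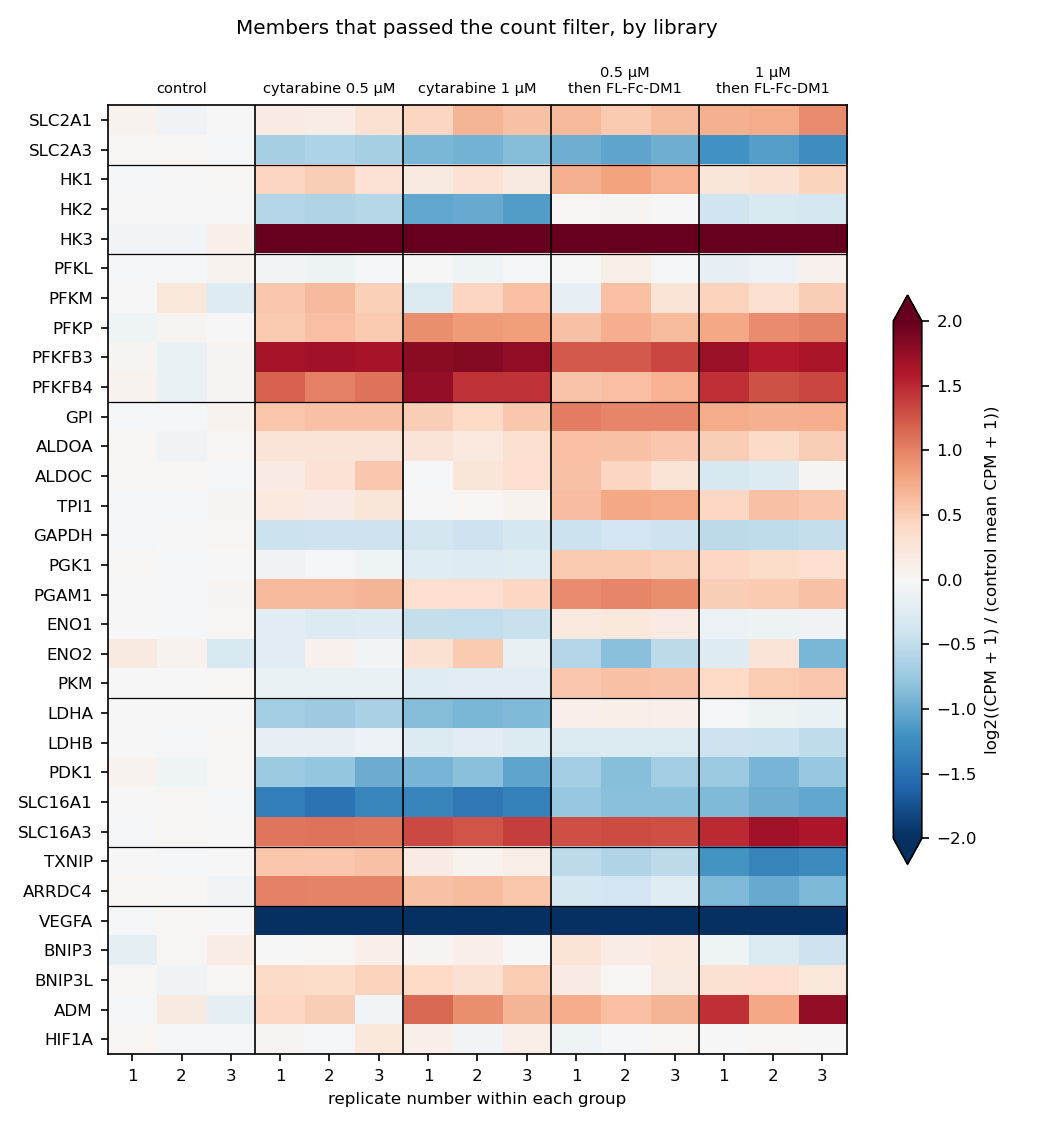
The 32 tested members (rows, grouped by role) in each of the 15 libraries (columns, by group and replicate number); colour is log2 of (CPM + 1) over (the control mean CPM + 1), clipped at -2 and 2. HK3 and VEGFA reach the ends of the scale in every treated library, TXNIP and ARRDC4 turn from higher to lower between the cytarabine and FL-Fc-DM1 columns, and LDHA, HK2, PKM and PGK1 are higher in the FL-Fc-DM1 columns than in the cytarabine columns of the same dose.

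The glucose-sensing targets fell together with FL-Fc-DM1, further than any other member when the FL-Fc-DM1 groups are set against cytarabine. The 250 bases before the annotated start sites of TXNIP and ARRDC4 are shown because sugar sensing is known to act on E-boxes near such sites. LDHA and PGK1, textbook hypoxia targets whose mRNA went the opposite way, are shown for contrast. Sequences are from RefSeq on GRCh38.p14, 5′ to 3′ on the gene's strand, for the first entry of each gene: TXNIP from chr1:145996580-145996829 (minus strand), ARRDC4 from chr15:97960453-97960702 (plus strand), LDHA from chr11:18394313-18394562 (plus strand) and PGK1 from chrX:78103998-78104247 (plus strand). Capitals mark the paired E-box (CACGNG, then any 5 bases, then CNCGNG) in TXNIP, the E-box CACGTG in ARRDC4, and ACGTG or GCGTG, on either strand, in LDHA and PGK1. The marked motif differs by gene, so the marking does not set the sequences apart. LDHA also holds CACGTG, and TXNIP and ARRDC4 hold GCGTG that is left unmarked.
TXNIP: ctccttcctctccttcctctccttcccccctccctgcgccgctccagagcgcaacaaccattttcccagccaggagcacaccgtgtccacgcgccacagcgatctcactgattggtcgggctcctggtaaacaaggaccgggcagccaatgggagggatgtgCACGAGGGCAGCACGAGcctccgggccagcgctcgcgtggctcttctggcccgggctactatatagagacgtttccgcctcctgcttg
ARRDC4: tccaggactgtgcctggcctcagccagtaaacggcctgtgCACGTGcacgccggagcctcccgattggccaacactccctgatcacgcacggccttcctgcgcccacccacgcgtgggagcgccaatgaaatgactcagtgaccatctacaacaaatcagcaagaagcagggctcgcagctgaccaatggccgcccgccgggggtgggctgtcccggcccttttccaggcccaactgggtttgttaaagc
LDHA: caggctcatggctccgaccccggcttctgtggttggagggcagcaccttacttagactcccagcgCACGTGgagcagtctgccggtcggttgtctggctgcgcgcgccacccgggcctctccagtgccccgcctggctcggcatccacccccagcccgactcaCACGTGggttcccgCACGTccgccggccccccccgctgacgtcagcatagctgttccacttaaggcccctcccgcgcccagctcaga
PGK1: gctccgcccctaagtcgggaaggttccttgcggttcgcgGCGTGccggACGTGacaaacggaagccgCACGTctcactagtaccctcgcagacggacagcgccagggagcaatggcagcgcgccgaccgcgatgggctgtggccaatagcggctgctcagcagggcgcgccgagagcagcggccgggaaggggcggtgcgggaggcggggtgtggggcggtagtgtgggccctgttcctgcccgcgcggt

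The paired E-box of TXNIP begins at position -88, counting back from -1 just before the start site. Searched on both strands, this pattern was in 149 of 35116 RefSeq promoters of that length (0.424%) and, among the 31 members with a promoter entry, in TXNIP alone. SLC2A3, VEGFA, BNIP3L and SLC16A1 had no entry. ARRDC4 holds CACGTG at position -210. CACGTG was in 6.34% of all promoters and in 9 of the members' 59 (15.3%). These lie in 9 of the 31 members, several of which have more than 1 promoter. ACGTG, which every CACGTG contains, was in 18.5% of all promoters and in 22 of the members' 59 (37.3%); GCGTG was in 32.2% of all and 19 of the 59 (32.2%). These are matches of letters and say nothing of binding in these cells.

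TXNIP (ENSG00000265972), which binds thioredoxin and draws glucose transporters from the cell surface, stood at 1130, 1106 and 1126 CPM in the control libraries, at 1652, 1624 and 1685 CPM after cytarabine 0.5 µM and at 1262, 1179 and 1218 CPM after 1 µM. After FL-Fc-DM1 it stood at 780.5, 740.7 and 779.1 CPM (0.5 µM before) and 487.7, 444.9 and 463 CPM (1 µM before). No library of any group overlapped with another group: all cytarabine libraries were above control and all FL-Fc-DM1 libraries below it. The rise over control was 0.56 ± 0.033 at 0.5 µM (1.48-fold, adjusted p = 3.52e-14) and 0.12 ± 0.033 at 1 µM (1.09-fold, adjusted p = 0.00179). FL-Fc-DM1 libraries were 2.16-fold lower than cytarabine 0.5 µM (-1.11 ± 0.034, adjusted p = 1.61e-18) and 2.62-fold lower than cytarabine 1 µM (-1.39 ± 0.034, adjusted p = 1.72e-20). The fall was steeper at the higher dose by -0.28 ± 0.048 (adjusted p = 0.000606), a call lost by limma on log2(TPM + 1), with -0.25 and adjusted p = 0.0627.

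ARRDC4 (ENSG00000140450), the arrestin-domain relative of TXNIP, stood at 90.8, 89.8 and 85.6 CPM in control, 179, 177.1 and 177.1 CPM after cytarabine 0.5 µM and 133.5, 137.5 and 130.4 CPM after 1 µM. ARRDC4 then stood at 69, 67.5 and 75.2 CPM and 47.7, 43.7 and 47.2 CPM in the FL-Fc-DM1 groups. Its groups fell in the same order as those of TXNIP, again with none overlapping. ARRDC4 rose 2.004-fold and 1.51-fold with cytarabine (1.00 ± 0.044 and 0.59 ± 0.045, adjusted p = 7.75e-17 and 5.68e-12) and was 2.51-fold and 2.9-fold lower with FL-Fc-DM1 (-1.33 ± 0.046 and -1.53 ± 0.051, adjusted p = 2.12e-17 and 7.38e-18). The difference of its FL-Fc-DM1 change between doses, -0.20 ± 0.070, did not pass (adjusted p = 0.127).

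**Figure D2:**
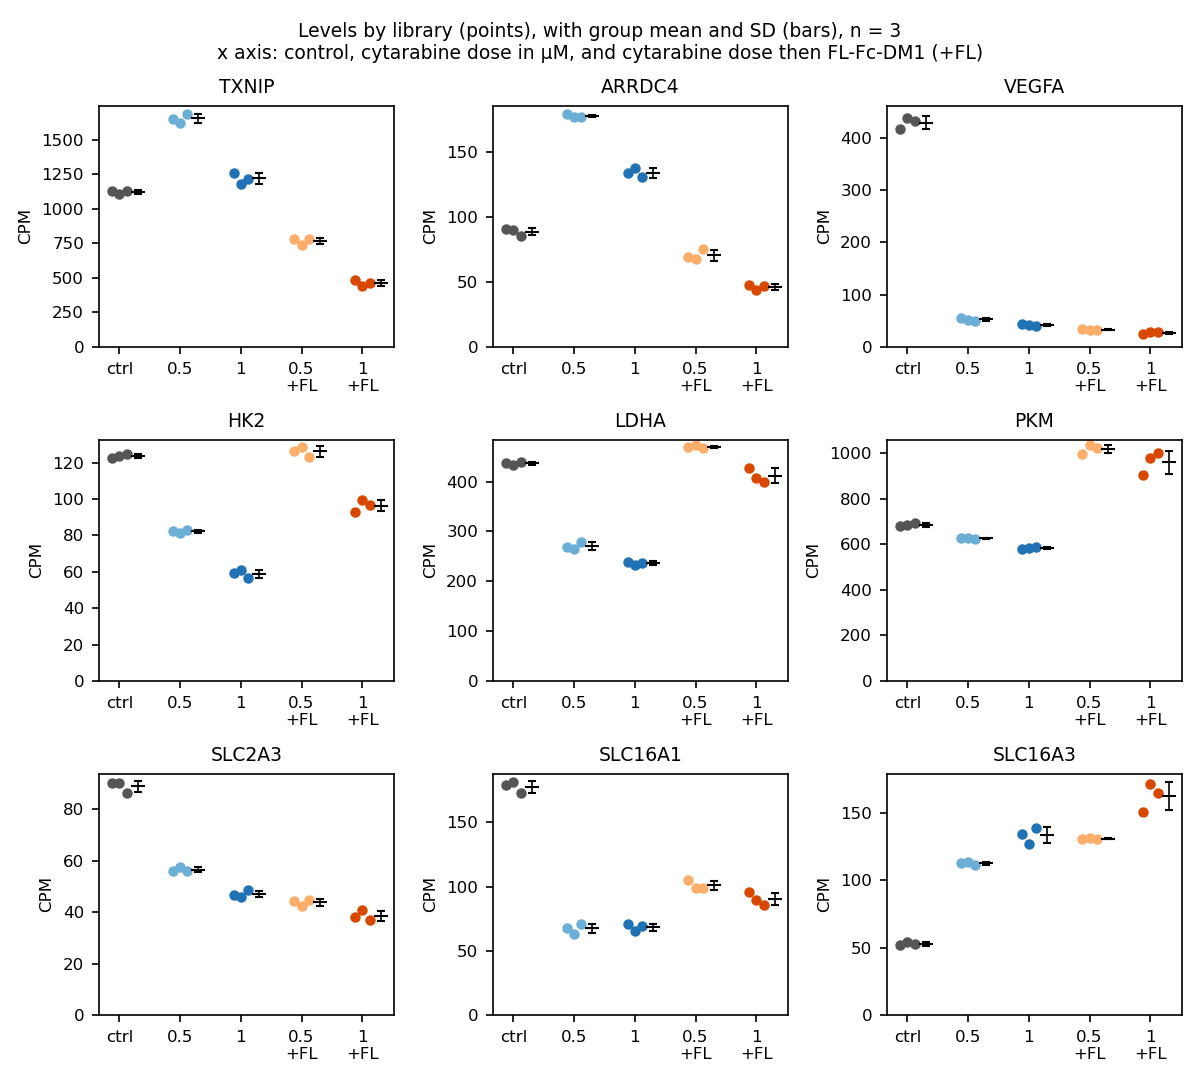
CPM by library (points) with the group mean and SD (bars, n = 3) for 9 members; the x axis gives control, cytarabine at 0.5 and 1 µM, and the same doses followed by FL-Fc-DM1 (+FL), and each y axis starts at 0. TXNIP runs from about 1121 CPM in control to 1654 after cytarabine 0.5 µM and 465 in the last group, while LDHA dips from 437 to 236 CPM under cytarabine 1 µM and stands at 411 CPM after FL-Fc-DM1.

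The glucose transporters parted. SLC2A1, the widely expressed transporter GLUT1, was at 33.7, 30.4 and 32.2 CPM in control, 36, 35.8 and 40 CPM after cytarabine 0.5 µM and 43.4, 51.8 and 48.6 CPM after 1 µM. SLC2A1 then stood at 50.7, 46.6 and 50.5 CPM after FL-Fc-DM1 at the lower dose and 53, 54.5 and 62.5 CPM at the higher. SLC2A3, the high-affinity transporter GLUT3, went from 90.3, 90 and 86.2 CPM in control to 56, 57.5 and 55.8 CPM and 46.8, 45.8 and 48.4 CPM under cytarabine. SLC2A3 then stood at 44.5, 42.2 and 44.5 CPM and 37.9, 40.7 and 36.9 CPM after FL-Fc-DM1. So SLC2A1 was higher and SLC2A3 lower in cytarabine than in control libraries, and in FL-Fc-DM1 than in cytarabine libraries of the same dose. SLC2A1 rose by 0.21 ± 0.078 and 0.57 ± 0.076 with cytarabine and by 0.40 ± 0.076 and 0.24 ± 0.074 with FL-Fc-DM1 (adjusted p = 0.0165, 1.76e-07, 0.000105 and 0.00838). The call at cytarabine 0.5 µM was lost without control replicate 2 or cytarabine 0.5 µM replicate 3 (adjusted p = 0.0756 and 0.172) and on log2(TPM + 1) (0.0753). That for FL-Fc-DM1 at 1 µM was lost without cytarabine 1 µM replicate 1 or FL-Fc-DM1 1 µM replicate 3 (adjusted p = 0.074 and 0.0531). SLC2A3 fell, with log2 changes of -0.65 ± 0.051, -0.92 ± 0.052, -0.37 ± 0.055 and -0.29 ± 0.058 in the same comparisons (adjusted p = 9.78e-12, 1.05e-14, 6.16e-06 and 0.00026). Per length, in the TPM values of the authors, SLC2A1 made up 37.3 ± 1.06% of the pair in control (SD, n = 3). The share was 51.7 ± 1.63% and 61.8 ± 2.8% at the cytarabine doses and 64.9 ± 0.116% and 70.4 ± 3.31% in the FL-Fc-DM1 groups.

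The hexokinases, which phosphorylate glucose, also changed in their balance. HK2, the inducible form, was at 122.4, 123.6 and 124.6 CPM in control, 82.2, 81.4 and 83 CPM after cytarabine 0.5 µM and 59.6, 60.9 and 56.5 CPM after 1 µM. HK2 then stood at 126.5, 128.8 and 123 CPM after FL-Fc-DM1 at the lower dose and 93.1, 99.4 and 96.7 CPM at the higher. Cytarabine libraries were thus lowest, and those of FL-Fc-DM1 after 0.5 µM overlapped with control. HK2 fell 1.503-fold and 2.1-fold with cytarabine (-0.59 ± 0.042 and -1.07 ± 0.044, adjusted p = 2.37e-12 and 1.43e-17). HK2 was 1.53-fold and 1.63-fold higher with FL-Fc-DM1 (0.62 ± 0.043 and 0.71 ± 0.046, adjusted p = 1.59e-11 and 3.57e-12). HK1, the constitutive form, rose from 43.5 ± 0.905 CPM to 57.9 ± 4.1 and 50.7 ± 2.18 CPM with cytarabine (0.41 ± 0.063 and 0.22 ± 0.063, adjusted p = 1.81e-06 and 0.00308). After FL-Fc-DM1 at 0.5 µM HK1 was at 73.2 ± 2.85 CPM, higher than with cytarabine (0.34 ± 0.061, adjusted p = 5.97e-05). At 1 µM the difference from cytarabine, 0.12 ± 0.064, did not pass (adjusted p = 0.132).

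HK3, the hexokinase of myeloid cells and granulocytes, was nearly absent in control, with 0, 0 and 0.118 CPM from 2 counts over the 3 libraries. It was at 7.7, 8.77 and 9.01 CPM after cytarabine 0.5 µM and 6.04, 7.67 and 6.52 CPM after 1 µM. HK3 then stood at 10.5, 10.7 and 9.31 CPM and 7.79, 6.92 and 7.63 CPM after FL-Fc-DM1. Every treated library lay above every control library. The ratio of summed counts to control, scaled for depth, was 200 (95% counting interval 55 to 1660) and 158 (43.2 to 1310) for cytarabine, with adjusted p = 9.54e-16 and 4.97e-15. Such intervals cover counting error only. The fitted log2 changes of HK3, 7.36 and 7.02, rest on control replicate 3, which held both counts, and were 9.79 and 9.45 without it. FL-Fc-DM1 against cytarabine gave no call for HK3 (0.26 ± 0.156 and 0.15 ± 0.167, adjusted p = 0.187 and 0.5). In TPM, HK2 fell from 64.7 ± 0.334% of the 3 hexokinases in control to 44.3 ± 1.69% and 39.4 ± 0.929% under cytarabine and stood at 49.1 ± 0.34% and 49.5 ± 2.24% after FL-Fc-DM1. HK1 made 35.2 ± 0.146% in control and 43.3% to 52.6% elsewhere, and HK3 went from 0.136 ± 0.236% to between 7.08% and 8.15%. HK3 overlaps exons of UNC5A on the opposite strand, PFKM those of SENP1 and BNIP3L those of PNMA2, while PFKFB4 overlaps UCN2 on the same strand (GENCODE v29). Whether the counting used strand was not stated, so reads of such partners cannot be told apart.

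At the phosphofructokinase step, the commitment to glycolysis, PFKP and the bifunctional regulators PFKFB3 and PFKFB4 rose with cytarabine. PFKFB3, which makes the activator fructose 2,6-bisphosphate, was at 44.1, 38.6 and 44 CPM in control, 135.6, 138 and 134 CPM after cytarabine 0.5 µM and 150.1, 153.6 and 146.3 CPM after 1 µM. PFKFB3 then stood at 100.6, 99.9 and 108.6 CPM after FL-Fc-DM1 at the lower dose and 140.9, 129.2 and 133.2 CPM at the higher. All treated libraries stood above control, and those of FL-Fc-DM1 stood below their cytarabine group. PFKFB3 rose 3.21-fold and 3.54-fold with cytarabine (1.68 ± 0.052 and 1.82 ± 0.052, adjusted p = 3.92e-20 and 4.8e-21). PFKFB3 fell with FL-Fc-DM1 (-0.40 ± 0.048 and -0.16 ± 0.047, adjusted p = 2.38e-07 and 0.00785). The second of these falls is not stable: limma on log2(TPM + 1) gave 0.015 (adjusted p = 0.898), and without FL-Fc-DM1 1 µM replicate 2 it was -0.12 (adjusted p = 0.0729).

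PFKFB4, of the same family, rose from 7.53 ± 0.632 CPM to 17.1 ± 1.07 and 24.1 ± 3.14 CPM with cytarabine (1.18 ± 0.115 and 1.68 ± 0.110, adjusted p = 8.52e-10 and 2.87e-13). With FL-Fc-DM1 it fell at 0.5 µM, to 12.1 ± 0.606 CPM (-0.49 ± 0.111, adjusted p = 7e-04), and did not pass at 1 µM (-0.21 ± 0.101, adjusted p = 0.0892). PFKP, the platelet-type subunit, rose from 60.9 ± 3.08 CPM to 89.6 ± 2.8 and 112.4 ± 4.08 CPM with cytarabine (0.56 ± 0.057 and 0.89 ± 0.056, adjusted p = 2.29e-09 and 1.18e-13). PFKP was at 96 ± 4.86 and 115.4 ± 9.03 CPM after FL-Fc-DM1, differences that did not pass. That after 0.5 µM passed with only the groups compared (0.11, adjusted p = 0.0438). PFKL, the liver-type subunit, passed in none of the 8 main-fit comparisons, with group means of 102.5 to 109.4 CPM. Without FL-Fc-DM1 1 µM replicate 3, PFKL was lower in that group than in control (-0.15, adjusted p = 0.0137). The 95% interval of its change was -0.17 to 0.05 at cytarabine 0.5 µM and -0.15 to 0.07 at 1 µM. The rise of PFKM, the muscle-type subunit, at cytarabine 0.5 µM (from 2.18 to 3.69 CPM, 0.77 ± 0.298, adjusted p = 0.0231) was lost when any of 4 libraries was left out and on log2(TPM + 1) (adjusted p from 0.0523 to 0.342). Of the summed phosphofructokinase TPM, PFKP held 37.9 ± 1.17% in control, 47.7 ± 1.17% and 53.8 ± 0.716% at the cytarabine doses and 48 ± 0.751% and 54.4 ± 1.32% with FL-Fc-DM1.

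**Figure D3:**
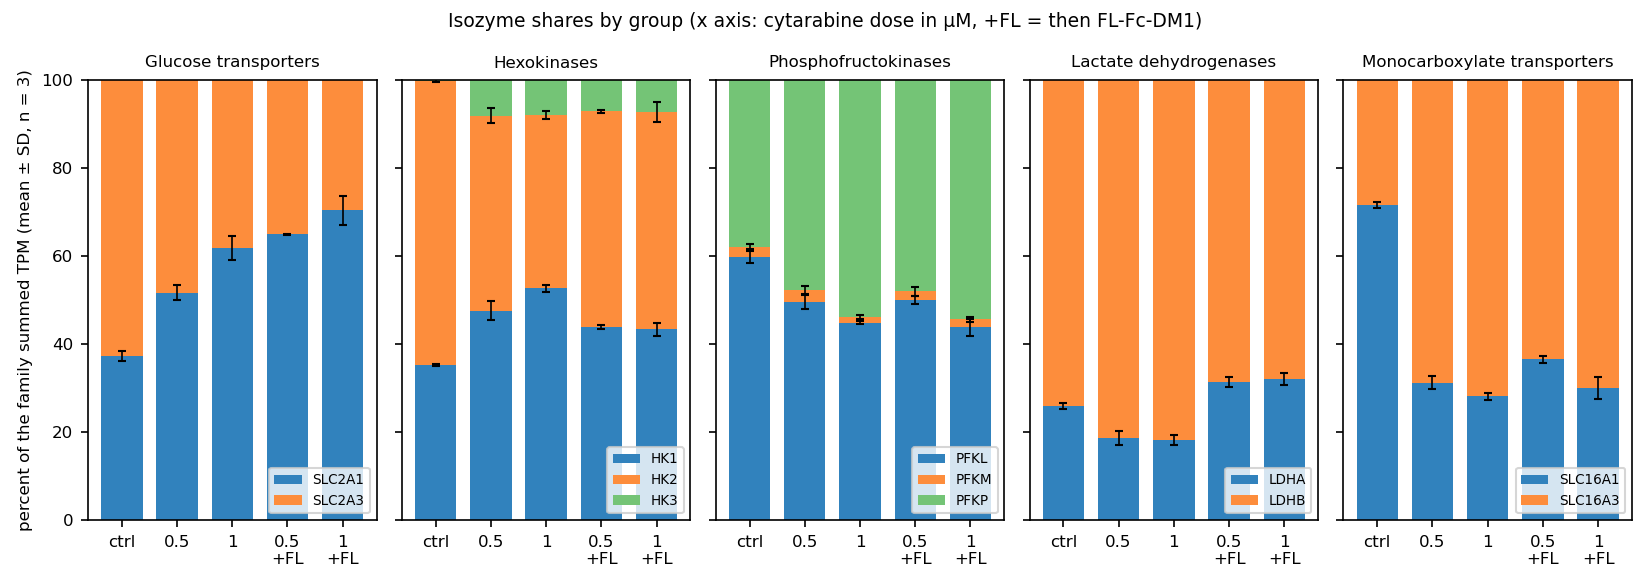
Share of each isozyme in the summed TPM of its family by group (stacked bars from 0 to 100%, mean with SD as error bars, n = 3). SLC2A1 goes from 37.3% to 70.4% of its pair, HK2 from 64.7% to 39.4% at its lowest, and SLC16A1 from 71.6% to 28.1% at its lowest.

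Of the 10 other enzymes from GPI to PKM, 5 rose and 3 fell at cytarabine 0.5 µM. At 1 µM, 3 rose and 4 fell. With FL-Fc-DM1, 7 rose at each dose, with 0 and 2 falls. Of all tested genes, 38% and 39.3% were higher and 35.2% and 36.6% lower at the cytarabine doses. For FL-Fc-DM1 the shares were 22% and 23.5% higher and 22.8% and 22.2% lower. The difference of these enzymes from other genes was not tested. GPI, the isomerase after hexokinase, rose with cytarabine and with FL-Fc-DM1. It went from 203.9 ± 8.7 CPM to 303.7 ± 4.4 and 284 ± 14.5 CPM with cytarabine (0.57 ± 0.038 and 0.48 ± 0.038). GPI was at 406.9 ± 8.36 and 338.9 ± 2.41 CPM with FL-Fc-DM1, higher than with cytarabine (0.42 ± 0.037 and 0.25 ± 0.038), with adjusted p of 4.38e-06 or less. ALDOA, the aldolase that splits fructose 1,6-bisphosphate, and PGAM1, the phosphoglycerate mutase, also rose in each of these 4 comparisons. ALDOA rose by 0.26, 0.26, 0.32 and 0.20, and PGAM1 by 0.66, 0.36, 0.29 and 0.17, with adjusted p of 0.000273 or less. TPI1, which interconverts the triose phosphates, rose at cytarabine 0.5 µM (0.20 ± 0.044, adjusted p = 0.000266), had no call at 1 µM (0.03 ± 0.045, adjusted p = 0.51), and rose with FL-Fc-DM1 by 0.51 ± 0.044 and 0.48 ± 0.045 (adjusted p = 5.98e-10 and 2.16e-09).

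PGK1, ENO1 and PKM, the kinase, enolase and pyruvate kinase of the lower pathway, were lower under cytarabine and higher after FL-Fc-DM1. PKM was at 681, 683.4 and 696.3 CPM in control, 627.8, 628.7 and 624.3 CPM after cytarabine 0.5 µM and 579.6, 584.8 and 590.7 CPM after 1 µM. PKM then stood at 999.3, 1035 and 1025 CPM after FL-Fc-DM1 at the lower dose and 905.3, 978.2 and 1001 CPM at the higher. PGK1 was at 316.4, 305.6 and 311.1 CPM in control, 296.2, 302.6 and 294.2 CPM and 263.9, 260.8 and 263.4 CPM under cytarabine. PGK1 then stood at 449.9, 448.6 and 434.9 CPM and 414, 399.6 and 394.2 CPM after FL-Fc-DM1. For both genes every FL-Fc-DM1 library stood above every library of the other groups. PKM fell, with log2 changes of -0.13 ± 0.032 and -0.23 ± 0.032 with cytarabine (adjusted p = 0.000729 and 4.46e-07). PKM rose by 0.70 ± 0.032 and 0.72 ± 0.032 with FL-Fc-DM1 (1.63-fold and 1.64-fold, adjusted p = 4.67e-15 and 3.16e-15). PGK1 fell at 1 µM (-0.24 ± 0.032, adjusted p = 1.51e-07) and missed the threshold at 0.5 µM (-0.06 ± 0.032, adjusted p = 0.0739; under 0.05 by DESeq2, voom and some other alternatives). PGK1 rose by 0.58 ± 0.032 and 0.62 ± 0.032 with FL-Fc-DM1 (adjusted p = 1.3e-13 and 4.39e-14). ENO1 fell from 1701 ± 32.2 CPM to 1433 ± 24.1 and 1227 ± 14.8 CPM with cytarabine (-0.25 ± 0.027 and -0.47 ± 0.027, adjusted p = 6.24e-09 and 1.46e-14). ENO1 rose to 1944 ± 35.8 and 1588 ± 29.8 CPM after FL-Fc-DM1 (0.44 ± 0.027 and 0.37 ± 0.027, adjusted p = 1.14e-12 and 2.67e-11).

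GAPDH, often used as a reference gene, went from 2649, 2698 and 2753 CPM in control to 2001, 2035 and 2033 CPM and 2098, 2022 and 2138 CPM under cytarabine. GAPDH then stood at 2014, 2077 and 2021 CPM and 1870, 1895 and 1942 CPM after FL-Fc-DM1. Treated libraries were all below control. Its log2 changes with cytarabine were -0.42 ± 0.027 and -0.37 ± 0.027 (adjusted p = 2.35e-13 and 2.02e-12). With FL-Fc-DM1 it had no call at 0.5 µM (0.01 ± 0.027, adjusted p = 0.786) and fell at 1 µM (-0.13 ± 0.027, adjusted p = 0.000241). The low isozymes ALDOC, at 6.21 to 10.0 CPM by group, and ENO2, a neuronal enolase at 1.09 to 2.89 CPM, had few calls. In the main fit ENO2 passed only as a fall of FL-Fc-DM1 at 0.5 µM against control (-1.03 ± 0.388, adjusted p = 0.0208), lost in some alternatives (adjusted p up to 0.189). Its fall against cytarabine 0.5 µM (-0.94) passed without the count filter, with only the groups compared and by voom (adjusted p = 0.034, 0.0121 and 0.031). At 1 µM the fall passed without FL-Fc-DM1 1 µM replicate 2 (adjusted p = 0.0181). ALDOC rose at cytarabine 0.5 µM (0.38 ± 0.152, adjusted p = 0.0263) and fell with FL-Fc-DM1 at 1 µM (-0.41 ± 0.164, adjusted p = 0.0438). These ALDOC calls were lost in several alternatives, with adjusted p up to 0.22 and 0.597. ALDOC was also higher with FL-Fc-DM1 at 0.5 µM than in control (0.48 ± 0.151, adjusted p = 0.00644), a call lost without FL-Fc-DM1 0.5 µM replicate 1 (adjusted p = 0.0517). GAPDH, PGAM1, ENO1, LDHA and PKM have processed copies elsewhere in the genome, and TPI1, PGK1, GPI and ALDOA overlap exons of other genes of the table, so a share of their counts is uncertain.

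The summed level of the 18 enzymes from hexokinase to lactate dehydrogenase was 9761 ± 119 TPM in control, 8386 ± 110 and 8068 ± 221 TPM under cytarabine, and 9820 ± 171 and 8983 ± 108 TPM after FL-Fc-DM1 (SD, n = 3). GAPDH weighs heavily in it: without GAPDH the sums were 5881 ± 113, 5528 ± 87.9, 5081 ± 112, 6995 ± 133 and 6259 ± 74.1 TPM. In both sums the cytarabine libraries were below control. With GAPDH the FL-Fc-DM1 group of the lower dose overlapped with control in TPM but lay above it in CPM (8999 ± 130 against 8192 ± 133). That of the higher dose lay below control in TPM and in CPM (7933 ± 119 CPM). Without GAPDH both FL-Fc-DM1 groups lay above control.

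**Figure D4:**
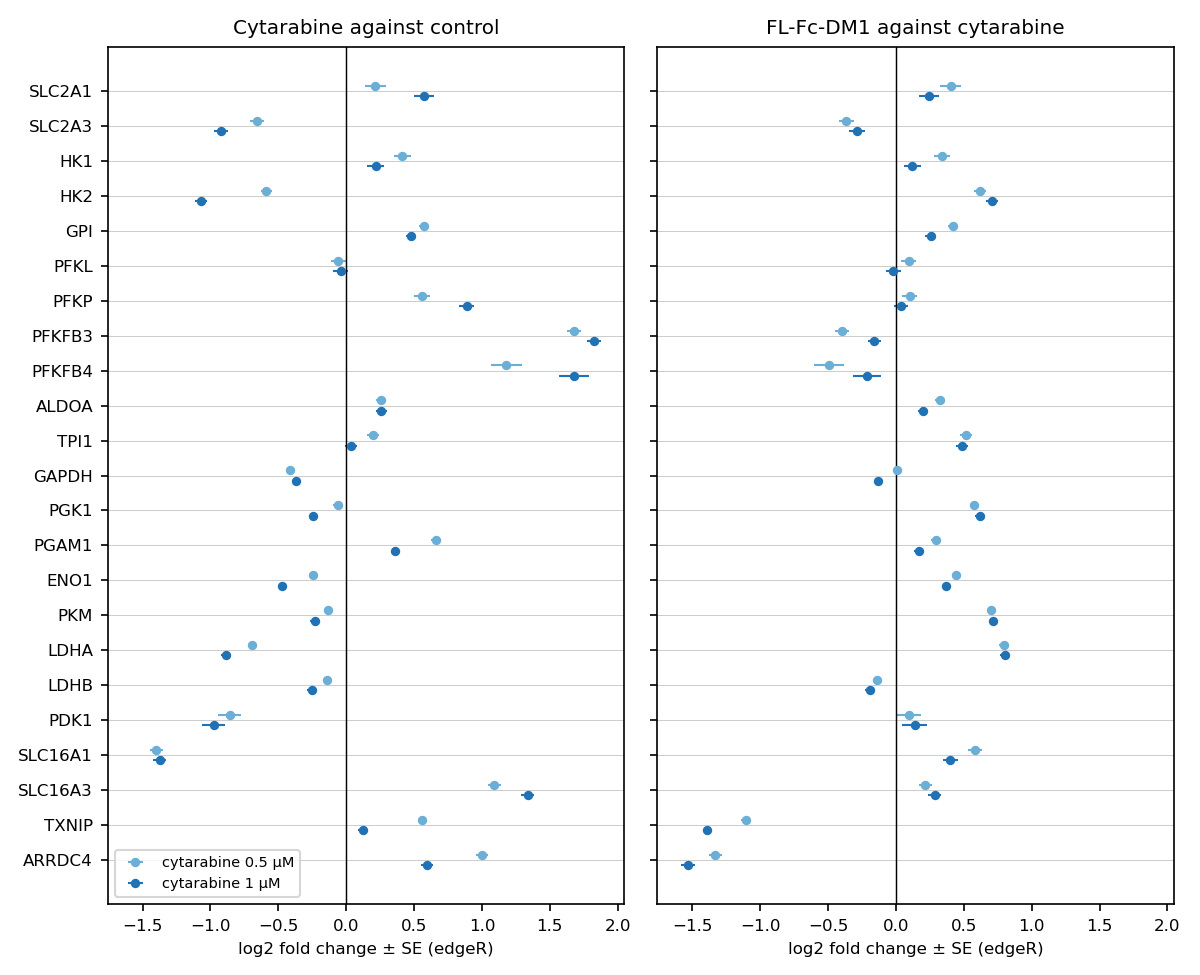
Log2 fold change from edgeR, with the derived SE as bars, for members from glucose transport to glucose sensing. Cytarabine against control is on the left and FL-Fc-DM1 against cytarabine on the right. Light points are for the 0.5 µM and dark points for the 1 µM dose. HK3, PFKM, ALDOC and ENO2, which are low, are not drawn. PFKFB3 lies furthest right on the left panel at 1.68 and 1.82, and TXNIP and ARRDC4 lie furthest left on the right panel at -1.11 to -1.53.

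At the end of the pathway, LDHA, the dehydrogenase subunit that favours lactate, was at 437.5, 434.1 and 440 CPM in control, 268.5, 264.6 and 278.7 CPM after cytarabine 0.5 µM and 239.5, 232 and 237.1 CPM after 1 µM. LDHA then stood at 469, 472.4 and 466.7 CPM after FL-Fc-DM1 at the lower dose and 427.7, 407.9 and 398.5 CPM at the higher. Cytarabine libraries were far below the rest. LDHA fell 1.62-fold and 1.85-fold with cytarabine (-0.69 ± 0.033 and -0.89 ± 0.033, adjusted p = 3.25e-16 and 1.51e-18). LDHA was 1.73-fold and 1.74-fold higher with FL-Fc-DM1 (0.79 ± 0.033 and 0.80 ± 0.033, adjusted p = 6.17e-16 and 6.79e-16). There was no called difference between the doses (0.01 ± 0.047, adjusted p = 0.976). LDHB, the other subunit, fell in all 4 comparisons, with log2 changes of -0.14, -0.26, -0.14 and -0.19, from 893.2 ± 13.9 CPM in control to 654.3 ± 23.8 CPM after FL-Fc-DM1 at 1 µM (adjusted p of 0.000562 or less). The share of LDHA in the summed TPM of both was 26 ± 0.702% in control, 18.7 ± 1.6% and 18.2 ± 1.14% under cytarabine, and 31.3 ± 1.11% and 32.1 ± 1.33% after FL-Fc-DM1. LDHB overlaps an unnamed gene of the table on the same strand.

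The monocarboxylate transporters changed places. SLC16A1, or MCT1, was at 179.1, 181 and 172.4 CPM in control, 67.6, 63.3 and 71.1 CPM after cytarabine 0.5 µM and 70.5, 65.3 and 69.1 CPM after 1 µM. SLC16A1 then stood at 105.1, 99.1 and 98.8 CPM after FL-Fc-DM1 at the lower dose and 95.6, 89.6 and 85.8 CPM at the higher. SLC16A3, or MCT4, the exporter of strongly glycolytic cells, was at 51.6, 54.4 and 52.3 CPM in control, 112.5, 113.3 and 111.4 CPM and 134, 127 and 138.7 CPM under cytarabine. SLC16A3 then stood at 130.3, 131.2 and 130.3 CPM and 150.7, 171.5 and 164.6 CPM after FL-Fc-DM1. Control stood apart from all treated groups for both genes, high for SLC16A1 and low for SLC16A3. SLC16A1 fell 2.63-fold and 2.59-fold with cytarabine (-1.40 ± 0.049 and -1.38 ± 0.049, adjusted p = 5.75e-19 and 6.05e-19). SLC16A1 was higher with FL-Fc-DM1 than with cytarabine (0.58 ± 0.052 and 0.40 ± 0.053, adjusted p = 1.32e-09 and 8.24e-07). SLC16A3 rose 2.13-fold and 2.53-fold with cytarabine (1.09 ± 0.050 and 1.34 ± 0.049, adjusted p = 1.48e-16 and 1.11e-18). With FL-Fc-DM1 it was higher than with cytarabine by 0.22 ± 0.046 and 0.28 ± 0.045 (adjusted p = 0.000437 and 1.23e-05). In TPM, SLC16A1 made up 71.6 ± 0.591% of the pair in control, 31.2 ± 1.4% and 28.1 ± 0.771% under cytarabine, and 36.5 ± 0.721% and 30 ± 2.46% after FL-Fc-DM1. SLC16A3 overlaps exons of CSNK1D on the opposite strand.

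PDK1, a kinase that shuts pyruvate dehydrogenase and a known hypoxia target, fell from 40.8 ± 2.32 CPM to 22.5 ± 2.17 and 20.7 ± 1.64 CPM with cytarabine (-0.86 ± 0.083 and -0.98 ± 0.084, adjusted p = 7.98e-10 and 6.73e-11). After FL-Fc-DM1 it was at 24 ± 1.53 and 22.8 ± 1.72 CPM, with no call (0.09 ± 0.090 and 0.14 ± 0.093, adjusted p = 0.422 and 0.238). It differed in this from LDHA and SLC16A1, for which the FL-Fc-DM1 comparisons passed; the difference between genes was not tested.

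VEGFA, the angiogenic growth factor, fell furthest of all members. It was at 415.6, 438.4 and 432.5 CPM in control, 56, 51.4 and 50.6 CPM after cytarabine 0.5 µM and 43.2, 41.6 and 40.5 CPM after 1 µM. VEGFA then stood at 34, 32.6 and 32.9 CPM after FL-Fc-DM1 at the lower dose and 25.5, 28 and 28.5 CPM at the higher. The 5 groups did not overlap. VEGFA fell 8.14-fold and 10.2-fold with cytarabine (-3.02 ± 0.046 and -3.36 ± 0.047, adjusted p = 7.3e-27 and 1.47e-27). VEGFA was 1.59-fold and 1.53-fold lower with FL-Fc-DM1 than with cytarabine (-0.67 ± 0.057 and -0.61 ± 0.062, adjusted p = 6.37e-10 and 1.22e-08).

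None of the other tested members grouped as hypoxia factor and targets fell with cytarabine. PDK1 and LDHA, named above as hypoxia targets but grouped elsewhere, fell at both doses, and PGK1 fell at 1 µM. HIF1A, the oxygen-regulated subunit of the factor, which is controlled mostly at the protein level, had no call in the 8 main-fit comparisons. Its group means were 85.2 to 92 CPM. Without cytarabine 0.5 µM replicate 2, HIF1A was lower with FL-Fc-DM1 after 0.5 µM than with cytarabine (-0.15, adjusted p = 0.0493). The 95% intervals of its change were -0.04 to 0.20 and -0.06 to 0.18 on the log2 scale for cytarabine, and -0.23 to 0.01 and -0.16 to 0.08 for FL-Fc-DM1. BNIP3L, a mitophagy receptor, rose with cytarabine from 103.4 ± 3.85 CPM to 136.9 ± 4.63 and 137.5 ± 9.41 CPM (0.40 ± 0.051 and 0.41 ± 0.050, adjusted p = 7.95e-08 and 5.21e-08). BNIP3L fell with FL-Fc-DM1 at 0.5 µM (-0.27 ± 0.051, adjusted p = 0.000106) and did not pass at 1 µM (-0.12 ± 0.051, adjusted p = 0.0632). Its relative BNIP3 stood at 18.7 ± 2.15, 19.2 ± 0.692, 19.3 ± 0.745, 21.7 ± 1.06 and 15.5 ± 1.98 CPM from control to the last group. Among these 4 comparisons its call was the fall with FL-Fc-DM1 at 1 µM (-0.32 ± 0.104, adjusted p = 0.0137), which was lost in some alternatives (adjusted p up to 0.0953).

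ADM, the vasodilator peptide adrenomedullin, was low throughout, with 9 counts over the control libraries and 19, 54, 35 and 71 in the treated groups. Its count ratio to control was 6.88 (95% counting interval 3.37 to 15.9) at cytarabine 1 µM, where it rose (adjusted p = 0.000246), and it had no call at 0.5 µM (adjusted p = 0.105, or 0.0394 without cytarabine 0.5 µM replicate 3). FL-Fc-DM1 groups were above control, by 2.20 ± 0.634 and 3.42 ± 0.575 (adjusted p = 0.00338 and 8.54e-06). Set against cytarabine they had no call (adjusted p = 0.185 and 0.187), though log2(TPM + 1) gave one at 1 µM (adjusted p = 0.0051). The fitted log2 change of ADM at 1 µM was 2.70, and 3.33 without control replicate 2. CA9, a carbonic anhydrase that is among the most hypoxia-dependent genes known, had 0 counts in all 15 libraries. EGLN3, an oxygen-sensing prolyl hydroxylase, had 1 count in 1 library, and ANKRD37 was between 0.191 and 1.21 CPM. Of the 5 tested members grouped as hypoxia factor and targets, 1 rose and 1 fell at cytarabine 0.5 µM. At 1 µM, 2 rose and 1 fell, and with FL-Fc-DM1 0 rose and 2 fell at each dose. Of all tested genes, 38% and 39.3% were higher and 35.2% and 36.6% lower at the cytarabine doses. For FL-Fc-DM1 the shares were 22% and 23.5% higher and 22.8% and 22.2% lower.

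The cytarabine doses were also compared directly, 1 µM against 0.5 µM, to ask whether the members followed the dose. Here 5 members rose and 13 fell, when 19.3% of all tested genes were called, 9.08% higher and 10.3% lower, and 0 of the called members reached 2-fold. ADM differed by 1.42 ± 0.528 on the log2 scale with no call (adjusted p = 0.0604, or 0.0361 by voom). The risers were SLC2A1 (0.36 ± 0.076, adjusted p = 0.00119), PFKP (0.33 ± 0.055), PFKFB4 (0.50 ± 0.101), SLC16A3 (0.25 ± 0.046) and PFKFB3 (0.14 ± 0.047, adjusted p = 0.0314). The falls included HK2 (-0.48 ± 0.046, adjusted p = 2.76e-08), TXNIP (-0.44 ± 0.033, adjusted p = 3.45e-10), ARRDC4 (-0.41 ± 0.043, adjusted p = 1.16e-07), VEGFA (-0.33 ± 0.054), PGAM1 (-0.30 ± 0.035), SLC2A3 (-0.26 ± 0.054), ENO1 (-0.22 ± 0.027), LDHA (-0.20 ± 0.034) and PGK1 (-0.18 ± 0.032). TXNIP, ARRDC4 and PGAM1 were above control at both doses, so for them the fall is a smaller rise at 1 µM. The other falls listed had means below control at both doses, and lower at 1 µM. The calls of HK1, PFKFB3, PKM, TPI1 and LDHB in this comparison were lost without at least 1 of the libraries. On log2(TPM + 1) those of VEGFA and LDHA were lost too (adjusted p = 0.0521 and 0.158).

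The FL-Fc-DM1 change differed between doses for 2 members, both lower, TXNIP and GAPDH, when 3.07% of all tested genes were called, 2.14% higher and 0.931% lower. The GAPDH call (adjusted p = 0.0363) was lost in 10 of 19 alternatives, with adjusted p up to 0.225. Set against control, 18 members were higher and 9 lower after FL-Fc-DM1 at the 0.5 µM dose (69.2% of all genes called, 35% higher and 34.2% lower). At 1 µM 15 were higher and 12 lower (71.2%, 35.8% higher and 35.4% lower). Called and at least 2-fold were 7 and 8 members, when 18.7% and 19.8% of all genes were. HK2 had no call against control at 0.5 µM (0.03 ± 0.041, adjusted p = 0.539) and was lower at 1 µM (-0.36 ± 0.043, adjusted p = 3.55e-08). LDHA differed from control by 0.10 ± 0.032 at 0.5 µM and -0.09 ± 0.032 at 1 µM (adjusted p = 0.00635 and 0.0176), calls that were lost on log2(TPM + 1) (adjusted p = 0.569 and 0.718). TXNIP was lower than control, with log2 changes of -0.55 ± 0.034 and -1.27 ± 0.034, as was ARRDC4, with -0.33 ± 0.048 and -0.94 ± 0.052 (adjusted p of 1.27e-06 or less). SLC16A1 and PDK1 were below control and PFKFB3, SLC16A3 and HK3 above it at both doses.

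Of 83 further genes of the same pathways, in 7 lists, 67 were tested. Of these, 33 rose and 26 fell at cytarabine 0.5 µM, 36 and 27 at 1 µM, 17 and 15 with FL-Fc-DM1 after 0.5 µM and 17 and 21 after 1 µM. Among all tested genes 73.2%, 75.9%, 44.7% and 45.7% were called in these comparisons. With cytarabine, the rises included FBP1, the gluconeogenic fructose 1,6-bisphosphatase, which went from 0.904 to 14.9 and 11.8 CPM (4.01 ± 0.181 and 3.68 ± 0.185). Others were SLC2A5, a fructose transporter, from 13.1 to 75.7 and 86.6 CPM (2.53 ± 0.066 and 2.73 ± 0.065), and PFKFB2, from 4.1 to 17.4 CPM at 0.5 µM (2.09 ± 0.131). The falls were led by STC2, a secreted glycoprotein gene, from 87.2 to 0.733 and 0.247 CPM, which is a count ratio of 119 (95% counting interval 82.8 to 178) and 359 (195 to 749). They included DDIT4, an inhibitor of mTORC1, from 192.4 to 37.4 and 41.8 CPM (-2.36 ± 0.057 and -2.20 ± 0.056), PDP2, a pyruvate dehydrogenase phosphatase, at 0.5 µM (-1.23 ± 0.058) and SLC16A7, or MCT2, at 1 µM (-1.45 ± 0.085). STC2 and DDIT4 stand among the other hypoxia targets, a list with calls in both directions: 7 rose and 7 fell of 16 at 0.5 µM, and 9 and 5 at 1 µM.

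With FL-Fc-DM1, 0 of the 16 other hypoxia targets rose at either dose, while 6 and 7 fell, and the pentose phosphate list, 7 genes, had 4 rises at each dose with 0 and 1 falls. Of all tested genes, 22% and 23.5% were higher and 22.8% and 22.2% lower; the difference of these lists from other genes was not tested. PPFIA4, a liprin, fell from 31.5 to 7.88 CPM and from 19 to 5.16 CPM (-1.99 ± 0.132 and -1.87 ± 0.152). BHLHE40, a repressor of the clock and hypoxia responses, fell from 76.5 to 30.6 CPM after 0.5 µM (-1.32 ± 0.061). KLF10, a zinc-finger factor tied to sugar sensing, fell from 111.1 to 47.8 and from 99.8 to 44.7 CPM (-1.21 ± 0.061 and -1.16 ± 0.063). The rises were smaller: GYS1, glycogen synthase (0.55 ± 0.063), RPIA of the pentose phosphate pathway (0.53 ± 0.079) and MLX, the partner of MondoA (0.39 ± 0.057), after 0.5 µM. After 1 µM they included G6PC3 (0.50 ± 0.122) and PDP1 (0.39 ± 0.053). All of the named changes had an adjusted p of 0.00158 or less.

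Among the 8 glucose-sensing genes of these lists, 5 rose at each cytarabine dose, and 2 and 3 fell. With FL-Fc-DM1, 3 fell and 2 rose at each dose. Of all tested genes, 38% and 39.3% were higher and 35.2% and 36.6% lower at the cytarabine doses. For FL-Fc-DM1 the shares were 22% and 23.5% higher and 22.8% and 22.2% lower. The difference of this list from other genes was not tested. The following were named after their values were seen. MLXIPL, which encodes ChREBP, rose from 1.19 CPM in control to 6.69 and 9.33 CPM with cytarabine. It fell to 1.51 and 2.66 CPM after FL-Fc-DM1 (-2.13 ± 0.234 and -1.82 ± 0.212, adjusted p = 4.64e-08 and 1.18e-07). MLXIP, which encodes MondoA, rose from 66 to 116.7 and 126.7 CPM with cytarabine and had no call with FL-Fc-DM1 (0.03 ± 0.051 and 0.08 ± 0.050, adjusted p = 0.62 and 0.194). ARRDC3, another arrestin-domain gene, rose from 13.1 to 40 and 40.8 CPM and fell to 21.9 and 29.6 CPM (-0.86 ± 0.093 and -0.47 ± 0.090, adjusted p = 3.17e-08 and 0.000148).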

How the data were processed

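Per gene, the authors deposited estimated counts for each of 15 libraries and TPM values, which sum to 1000000 per library and keep no depth. Of the deposited counts, 9.63% to 11.3% per library were not whole (tolerance 0.01), and all were rounded before testing. The submitters' processing notes list, without roles, StringTie 1.3.1, HISAT2, fastp 0.18.0, edgeR and DESeq2. Genome build, annotation, counting step and use of strand: not given in the sources used here.

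The main test was edgeR 4.0.16 on counts (limma 3.58.1, R 4.3.3): filterByExpr (minimum count 10, minimum total 15) kept 12355 genes, TMM scaled the libraries, and 1 quasi-likelihood fit to the 15 libraries (10 residual degrees of freedom) gave 8 contrasts with Benjamini-Hochberg adjustment over the tested genes. Depth, 10.9 to 16.97 M (mega) counts per library, limits members under a few CPM. Isozyme shares and enzyme sums are per library in TPM.

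The members and the lists were chosen with earlier results of these data known. All 35 members are described; of 83 further genes, the text names, in each of 4 comparisons, the 3 called genes of largest rise and the 3 of largest fall among genes that reach 10 CPM in either group and whose groups do not overlap. Some genes that this rule names are not reported here. Alternatives were DESeq2 size factors, no count filter, the test of DESeq2 1.42.0, fitting the compared groups alone, a replicate block, voom with quality weights, limma on log2(TPM + 1) and each library left out in turn.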

Additional observations from a re-analysis of the deposited data

Results flagged for a closer look

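The FL-Fc-DM1 change differed between the cytarabine pretreatment doses for 4 genes among the 32 tested members and 67 tested listed genes. The test was edgeR's quasi-likelihood test of the difference, Benjamini-Hochberg adjusted. Of all tested genes, 3.07% were called, 2.14% higher and 0.931% lower. Whether members and listed genes differ in this from other genes was not tested. TXNIP fell by 1.11 ± 0.034 after 0.5 µM and fell by 1.39 ± 0.034 after 1 µM, a difference of -0.28 ± 0.048 (adjusted p = 0.000606; 3.82e-07 to 0.0627 over 19 alternatives, 1 of which lost the call). GAPDH changed by 0.01 ± 0.027 and -0.13 ± 0.027, a difference of -0.14 ± 0.038 (adjusted p = 0.0363; 0.00258 to 0.225, lost in 10 of the 19). PYGL, the liver-type glycogen phosphorylase, changed by 0.04 ± 0.032 and -0.16 ± 0.032, a difference of -0.20 ± 0.045 (adjusted p = 0.0122; 0.000897 to 0.133, lost in 1). BHLHE40 changed by -1.32 ± 0.061 and -0.95 ± 0.057, a difference of 0.37 ± 0.084 (adjusted p = 0.0122; 0.00664 to 0.0726, lost in 3).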

How the results depend on the processing

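Over all alternatives, 3869 values of members and named genes were recomputed: 3753 kept their direction and side of the threshold (or had no call either way), 82 lost a call, 33 gained 1 and 1 reversed, the fall of PFKFB3 with FL-Fc-DM1 after 1 µM, which was 0.015 by limma on log2(TPM + 1). Of the lost calls, 53 came from leaving out 1 library and 18 from limma on log2(TPM + 1). Counts that moved by over 1.5 times were those of the smaller contrasts. In cytarabine 1 µM against 0.5 µM, log2(TPM + 1) gave 8 members lower in place of 13, and 716 genes higher and 638 lower in place of 1122 and 1268. For the test of how FL-Fc-DM1 changes differ by dose, it gave 0 members lower in place of 2, with 110 genes higher and 32 lower in place of 264 and 115; the fit without a count filter gave 203 genes lower and 1 member higher, DESeq2 gave 1 member higher, and a fit of only the groups compared gave 154 genes higher. Leaving out 1 library at a time gave 151 to 308 genes higher, 82 to 186 lower, 0 to 1 members higher and 1 to 3 members lower for that difference. The cause was not tested. Replicate numbers did not pair libraries across groups: over 30 pairs the deviations of same-numbered libraries correlated at -0.062 to 0.08. With the replicate number as a block, 1 member was higher in the difference between doses, PFKFB3 (0.24, adjusted p = 0.0478), and BNIP3L passed with FL-Fc-DM1 after 1 µM (-0.12, adjusted p = 0.0494). Members under a few CPM, such as ADM, PFKM and ENO2, are limited by depth.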
